A study of Mus musculus with 9 samples.

Results

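The 10 genes described here make, deliver or regulate steroid hormones in theca, luteal and Leydig cells, and their transcripts were followed over 9 single-colour Illumina expression arrays of C57BL/6 mouse cells: Scarb1, Star, Cyp11a1, Cyp17a1, Hsd3b1, Hsd17b3, Akr1c18, Akr1cl, Insl3 and Lhcgr. All probes carrying one of these symbols in the platform annotation were taken, which gave 16 of the 45281 probes on the array. These 16 probes stood for 9 of the 10 genes, among 19057 genes named on the array, since no named probe stood for Lhcgr, the luteinising hormone receptor. The arrays held 3 groups of 3. Putative female germ cells (PFGC), which the series title frames as a product of spermatogonial stem cell differentiation, were collected by magnetic sorting, as were the oocytes, and the spermatogonial stem cells (SSC) were cultured. The sorting antibody, the age of the mice and the tissue are not stated in the labels. Nor is it stated whether the 3 replicates of a group are independent cultures or animals, and p-values therefore reflect a spread between samples that may be only technical.

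Steroid hormones are made from cholesterol. Scarb1 takes up cholesterol from lipoproteins, Star carries it to the inner mitochondrial membrane, and Cyp11a1 there cleaves its side chain to give pregnenolone, the first steroid of the pathway. Hsd3b1 and Cyp17a1 turn pregnenolone into progesterone and androgens in theca and Leydig cells, and Hsd17b3 reduces androstenedione to testosterone in the testis. In the mouse corpus luteum Akr1c18 inactivates progesterone, and theca and Leydig cells also secrete Insl3, a peptide hormone of the relaxin family. Oocytes and spermatogonial stem cells are not known as steroid-producing cells.

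The probes of Cyp11a1, Akr1c18 and Hsd17b3 showed the widest differences between groups among the 10 genes, and the DNA upstream of their start sites is shown with the motifs that were searched. RefSeq upstream sequences (GRCm38.p6) were given for 7 of the 10 genes, with 8 start sites, and not for Star, Cyp17a1 or Scarb1. Sequences run 5′ to 3′ up to the base before the start site, and capitals mark motif matches on either strand. Cyp11a1 has 2 start sites in the table, and both are shown because the 3 probes of this gene disagreed. The Hsd17b3 sequence stops where the annotated gene begins.

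Cyp11a1, upstream start, chr9:57997774-57998023, plus strand: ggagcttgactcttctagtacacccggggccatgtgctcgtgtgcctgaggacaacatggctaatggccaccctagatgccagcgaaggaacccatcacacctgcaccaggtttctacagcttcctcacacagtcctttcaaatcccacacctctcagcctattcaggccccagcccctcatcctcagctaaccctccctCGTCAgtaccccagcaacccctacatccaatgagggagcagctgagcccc
Cyp11a1, downstream start, chr9:58014702-58014951, plus strand: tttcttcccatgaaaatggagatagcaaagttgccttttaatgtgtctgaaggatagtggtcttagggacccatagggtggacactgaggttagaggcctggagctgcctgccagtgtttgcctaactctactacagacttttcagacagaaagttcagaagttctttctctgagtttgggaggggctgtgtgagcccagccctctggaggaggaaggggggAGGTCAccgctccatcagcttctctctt
Akr1c18, chr13:4150647-4150896, minus strand: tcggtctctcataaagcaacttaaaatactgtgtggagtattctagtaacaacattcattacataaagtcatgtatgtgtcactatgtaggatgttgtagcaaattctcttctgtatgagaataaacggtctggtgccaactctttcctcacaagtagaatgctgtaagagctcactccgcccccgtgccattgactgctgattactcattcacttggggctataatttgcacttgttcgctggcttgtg
Hsd17b3, chr13:64089263-64089451, minus strand: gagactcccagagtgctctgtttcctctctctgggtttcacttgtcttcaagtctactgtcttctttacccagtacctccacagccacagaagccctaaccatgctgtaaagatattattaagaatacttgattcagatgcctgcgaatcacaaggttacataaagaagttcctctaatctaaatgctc

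The searched motifs were the binding cores of the NR5A receptors (AAGGTCA and AAGGCCA), the GATA sites AGATAA and TGATAA, the cAMP response half-site TGACG and the TATA box TATAAA, over 250 bases before to 50 after each start. None of the 8 member windows held either NR5A core, which 10.6% of the 32851 mouse windows of the same length held. The upstream Cyp11a1 start had a TGACG half-site on the reverse strand beginning 50 bases before the start, a motif found in 20.8% of all windows. AGATAA occurred at Akr1cl and Hsd3b1 and in 11.2% of all windows, while TGATAA (9.1% of all) and TATAAA (13.6% of all) occurred at none of the 8. The shorter half-site AGGTCA, which is contained in the first NR5A core and was added after the longer cores had been counted, lay 28 bases before the downstream Cyp11a1 start, 28 bases after the Akr1c18 start and upstream of Lhcgr, and in 16.3% of all windows. The NR5A cores without their last base, AAGGTC and AAGGCC, were also added at that point. AAGGTC occurred at Insl3 and in 12.3% of all windows, and AAGGCC at Akr1cl and Insl3 and in 16.5% of all windows. These matches describe the letters of the windows only.

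A probe was called detected on an array when its detection p-value, the authors' measure of signal against negative control probes, was under 0.01. Between 17631 and 18919 probes were detected per array, 38.9% to 41.8% of all, and median signals ranged from 104 to 122. The number of arrays limits the precision of every comparison. Probes detected on at least 3 of the 9 arrays were kept, 19934 in all, and 12 of the 16 steroid probes passed, standing for 8 genes. Levels are log2 intensities after background correction and quantile normalisation, and they compare groups within a probe, not genes with each other. Differences were tested with limma over all 19934 probes with Benjamini-Hochberg adjustment, and a change was called at an adjusted p under 0.05. Where the dimmer group was detected on no array, the fold is a lower bound: the brighter group's mean is set against the higher of the dim probe's value and the lowest value of any detected probe on each array.

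By the brightest kept probe of each gene, 5 of the 8 steroid genes were higher and 2 lower in PFGC than in SSC. Over the 11077 genes with a kept probe, 23.7% were called higher and 26.8% lower in this comparison. In oocytes 6 of the 8 were higher and 2 lower than in SSC, where 28.1% of all genes were called higher and 32.4% lower. Between PFGC and oocytes 1 gene was higher in PFGC and 3 were lower, where 6.8% of all genes were called higher and 3.3% lower. The median log2 fold change of the 8 genes was 1.45 in PFGC minus SSC, 1.95 in oocyte minus SSC and -0.33 in PFGC minus oocyte, and the medians over all genes were -0.06, -0.07 and -0.01. The 2 comparisons against SSC share the SSC arrays, and passing the detection filter depends on a gene being detected in some group. The split of all called probes moved with the scaling: in PFGC minus oocyte 60.4% of called probes were higher, against 27.8% without normalisation, and in oocyte minus SSC 47.4% were higher, against 59% without normalisation. No call of a steroid probe turned its direction under any scaling tried.

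**Figure D1:**
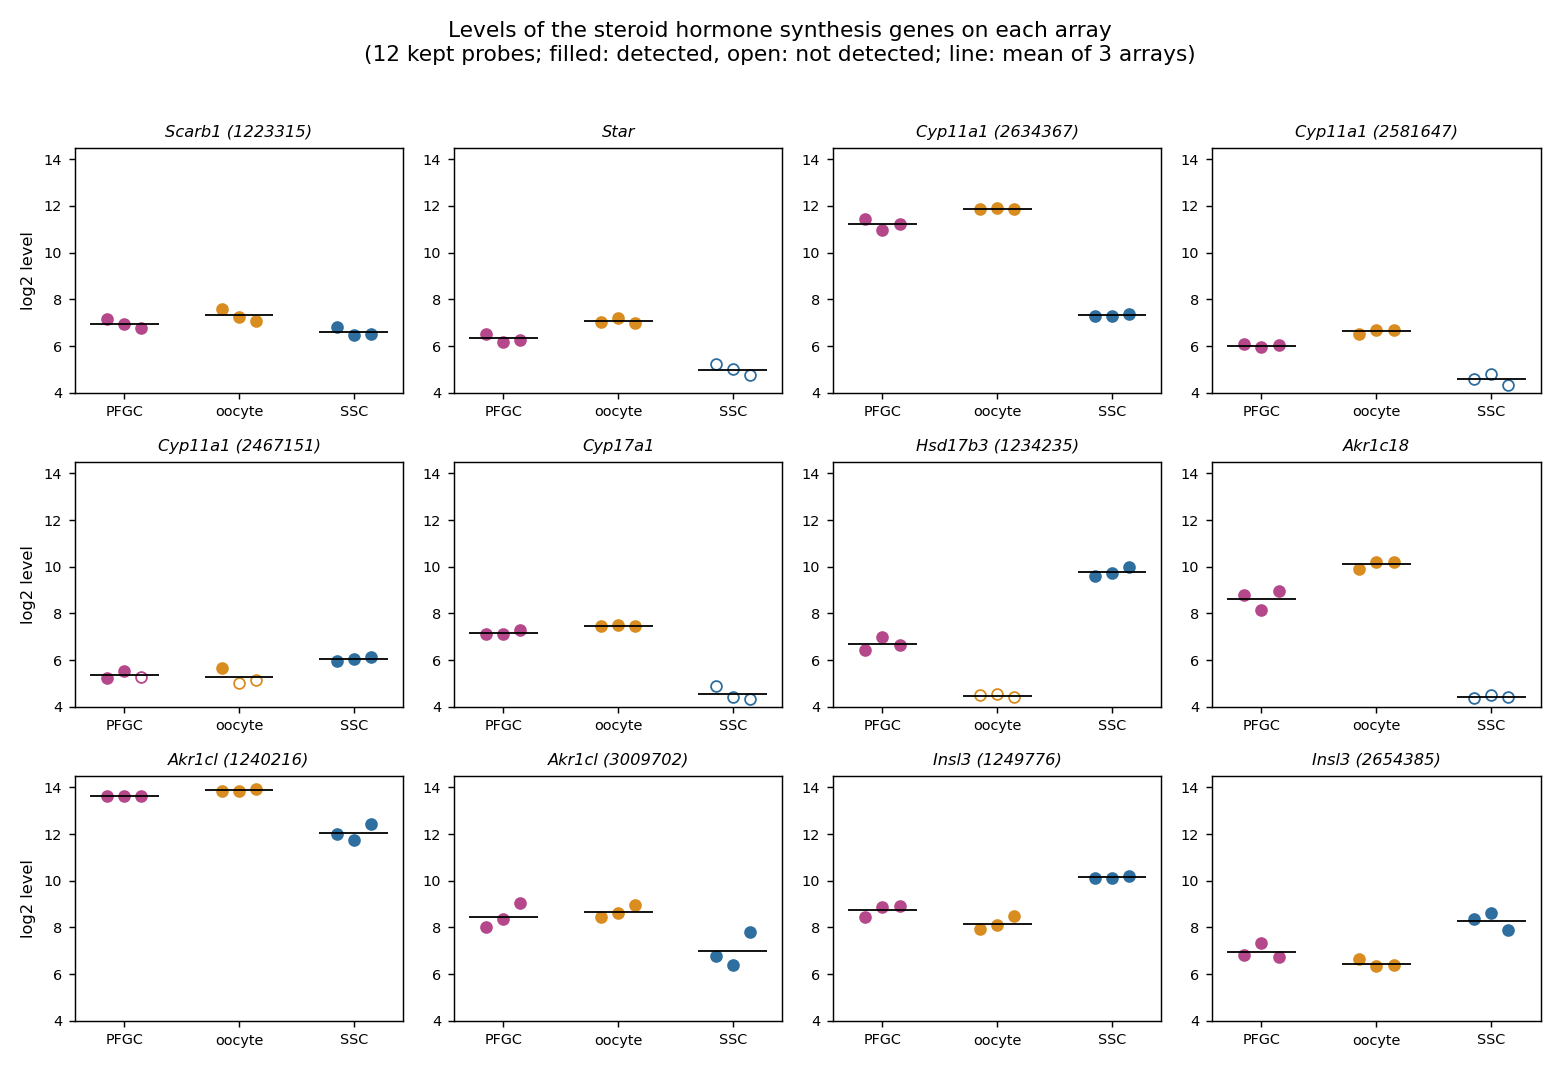
Log2 level on each array for the 12 kept probes of the steroid hormone synthesis genes, with PFGC on the left, oocytes in the middle and SSC on the right of each panel; filled points were detected, open points were not, and lines are means of 3 arrays. Star, Cyp17a1 and Akr1c18 have open points on all 3 SSC arrays, Hsd17b3 has open points on all 3 oocyte arrays, and 1 Cyp11a1 probe runs opposite to the other 2.

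Cholesterol uptake and delivery were represented by Scarb1 and Star. Scarb1, the receptor for high-density lipoprotein on chromosome 5, had probe signals of 214.3, 212.0 and 169.7 in PFGC, 318.4, 271.0 and 220.3 in oocytes and 197.3, 166.3 and 171.8 in SSC. The highest SSC array reached past the lowest PFGC array, so these groups overlapped, while all oocyte arrays were above all SSC arrays. Scarb1 exceeded its SSC level 1.64-fold in oocytes (limma adjusted p = 0.00411, log2 fold change 0.71, SE 0.17). The PFGC level of 6.95 ± 0.18 log2 units was not distinguished from the SSC level of 6.60 ± 0.18 (SD, n = 3 each; limma adjusted p = 0.104). Arrays of the same replicate number deviated together in part across groups, and with the number as a block the limma adjusted p was 0.0138. Cyclic loess normalisation also gave a call, with a limma adjusted p of 0.0271. Between PFGC and oocytes the limma adjusted p for Scarb1 was 0.207, and 0.0405 with the block. A second Scarb1 probe, ILMN_1218449, was detected on no array.

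Star, the acute regulatory protein that moves cholesterol into mitochondria and is encoded on chromosome 8, was detected on every PFGC and oocyte array and on no SSC array. Its signals were 168.2, 160.8 and 143.2 in PFGC, 245.6, 266.4 and 210.6 in oocytes and 119.0, 114.2 and 109.8 in SSC, with no overlap between any 2 groups. Star was at least 2.07-fold higher in PFGC than in SSC (limma adjusted p = 5.19e-05) and at least 3.48-fold higher in oocytes than in SSC (limma adjusted p = 1.29e-06). The PFGC level was 1.68-fold below the oocyte level (log2 fold change -0.75, SE 0.15, limma adjusted p = 0.0157). Leaving out 1 array ended that last call in 4 cases, with limma adjusted p of 0.0749 without PFGC replicate 2, 0.0509 without PFGC replicate 3, 0.0535 without oocyte replicate 1 and 0.0703 without oocyte replicate 2.

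The cytochrome P450 enzymes followed the same order of groups. Cyp11a1, the side-chain cleavage enzyme on chromosome 9, had signals of 2680.6, 2120.6 and 1947.0 in PFGC, 4353.9, 4767.2 and 3892.7 in oocytes and 245.6, 226.8 and 250.1 in SSC by its brightest probe, ILMN_2634367. All 9 arrays detected this probe, and the lowest PFGC array was several times brighter than the highest SSC array. Cyp11a1 was 14.9-fold higher in PFGC than in SSC (limma adjusted p = 1.01e-08, log2 fold change 3.89, SE 0.13) and 23.7-fold higher in oocytes than in SSC (limma adjusted p = 2.43e-09). The PFGC level was 1.60-fold below that of oocytes (log2 fold change -0.68, SE 0.13, limma adjusted p = 0.0147). This last call was lost without PFGC replicate 2 (limma adjusted p = 0.061), without oocyte replicate 1 (0.052) and without oocyte replicate 2 (0.0635).

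The other 2 probes of Cyp11a1 disagreed with each other. Probe ILMN_2581647 had signals of 147.0, 148.2 and 135.0 in PFGC, 202.2, 212.7 and 188.3 in oocytes and 103.0, 108.9 and 95.9 in SSC, where no array detected it. It showed the order of the brightest probe, with at least 1.68-fold higher levels in PFGC than in SSC (limma adjusted p = 1.26e-05) and at least 2.56-fold higher levels in oocytes than in SSC (limma adjusted p = 5.78e-07). In PFGC minus oocyte its log2 fold change was -0.61 (limma adjusted p = 0.0229), and that call was lost without PFGC replicate 2 or 3 or without any 1 oocyte array, with limma adjusted p from 0.0547 without oocyte replicate 1 to 0.0953 without PFGC replicate 2.

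Probe ILMN_2467151 of Cyp11a1 ran the other way. Its signals were 117.8, 131.0 and 114.3 in PFGC, 152.4, 128.8 and 125.8 in oocytes and 143.6, 144.3 and 151.9 in SSC, and 2 PFGC arrays, 1 oocyte array and all 3 SSC arrays detected it. It was 1.62-fold lower in PFGC than in SSC (log2 fold change -0.69, SE 0.17, limma adjusted p = 0.00679) and 1.69-fold lower in oocytes than in SSC (limma adjusted p = 0.00317). On the SSC arrays its levels were 5.94 to 6.14 log2 units, where the lowest value of any detected probe was 5.23 to 5.33. On the PFGC and oocyte arrays they were 5.04 to 5.65, where that lowest value was 5.14 to 5.36. Probe ILMN_2581647 was similarly dim in PFGC, at 5.94 to 6.08. The platform annotation assigns the opposing probes ILMN_2634367 and ILMN_2467151 to the same RefSeq transcript, and ILMN_2581647 to another sequence record. No probe sequence was aligned, so it was not determined which of the 2 annotated starts, or which transcript, each probe reads.

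Cyp17a1, the enzyme of chromosome 19 that commits steroids to androgen synthesis, had signals of 211.2, 230.7 and 201.9 in PFGC, 300.9, 303.5 and 254.5 in oocytes and 110.9, 97.6 and 95.5 in SSC. Every PFGC and oocyte array detected it, and no SSC array did. It was at least 3.73-fold higher in PFGC than in SSC (limma adjusted p = 3.94e-07) and at least 4.61-fold higher in oocytes than in SSC (limma adjusted p = 9.77e-08). The PFGC mean of 7.17 ± 0.09 log2 units lay below the oocyte mean of 7.48 ± 0.01 (SD, n = 3 each) without overlap, but the difference did not pass the test (limma adjusted p = 0.227). An uncharacterised long non-coding RNA, Gm41857, overlaps 4405 bases of the annotated Cyp17a1 span. The platform annotation assigns the probe to a RefSeq transcript of Cyp17a1, but no probe sequence was aligned to determine which of the 2 transcripts it reads.

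Of the hydroxysteroid dehydrogenases only Hsd17b3 was tested, by 1 kept probe, which ran opposite to the brightest probes of the P450 enzymes. Hsd3b1, which converts pregnenolone to progesterone and is encoded on chromosome 3, had signals of 108.5, 109.7 and 97.0 in PFGC, 138.9, 131.6 and 121.0 in oocytes and 89.7, 91.9 and 103.1 in SSC. Its single probe was detected on 1 array, oocyte replicate 1, and was therefore not tested. Hsd3b2, a relative of Hsd3b1 named after its values were seen, was detected on every array. Its mean levels were 10.9 in PFGC, 11.13 in oocytes and 10.74 log2 units in SSC. Neither PFGC nor oocytes were distinguished from SSC (limma adjusted p = 0.44 and 0.0665), but oocytes were under several settings, such as the replicate block (0.0152).

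Hsd17b3, the testosterone-forming enzyme on chromosome 13, was the steroid gene furthest below SSC in both PFGC and oocytes. In the mouse fetal testis it is a Sertoli cell gene, and in the adult testis a Leydig cell gene. By probe ILMN_1234235 its signals were 163.7, 215.5 and 161.4 in PFGC, 112.4, 112.2 and 103.4 in oocytes and 898.8, 863.6 and 1093.9 in SSC. No 2 groups overlapped, and the probe was detected on no oocyte array. Hsd17b3 was 8.45-fold lower in PFGC than in SSC (log2 fold change -3.08, SE 0.16, limma adjusted p = 1.71e-07) and at least 23.5-fold lower in oocytes than in SSC (limma adjusted p = 2.54e-09). PFGC were at least 2.78-fold higher than oocytes (limma adjusted p = 2.14e-05). Probes ILMN_2774131 and ILMN_2885555 of Hsd17b3 were detected on no array, with signals from 86.7 to 110.9 over both probes and all 9 arrays. These 2 probes did not show the SSC signal of the first, although the platform annotation assigns all of them to the same RefSeq transcript.

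The aldo-keto reductases were both highest in oocytes. Akr1c18, the progesterone-inactivating enzyme of the corpus luteum, lies on chromosome 13 and had signals of 495.6, 379.8 and 463.6 in PFGC, 1205.9, 1493.5 and 1207.9 in oocytes and 95.1, 100.4 and 99.0 in SSC. All PFGC and oocyte arrays detected it, no SSC array did, and no 2 groups overlapped. It was at least 10.3-fold higher in PFGC than in SSC (limma adjusted p = 9.71e-08) and at least 28.5-fold higher in oocytes than in SSC (limma adjusted p = 6.97e-09). PFGC were 2.77-fold lower than oocytes (log2 fold change -1.47, SE 0.20, limma adjusted p = 0.00175), and this call held without any 1 array. Akr1c18 belongs to a cluster of closely related genes, so its probe may also read its relatives.

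Akr1cl, a relative of the Akr1c enzymes on chromosome 1, was detected on all 9 arrays by both of its probes. Probe ILMN_1240216 had signals of 12552.2, 13444.0 and 11218.4 in PFGC, 17476.1, 17644.7 and 16426.6 in oocytes and 4148.0, 3150.9 and 5521.5 in SSC. It was 2.97-fold higher in PFGC than in SSC (limma adjusted p = 2.94e-05, log2 fold change 1.57, SE 0.17) and 3.52-fold higher in oocytes than in SSC (limma adjusted p = 6.58e-06). PFGC and oocytes were not distinguished (limma adjusted p = 0.385). The second probe of Akr1cl, ILMN_3009702, had signals of 320.9 to 480.4 in PFGC, 499.1 to 554.9 in oocytes and 161.6 to 306.9 in SSC. Its changes were close to those of the first, 2.79-fold higher in PFGC than in SSC (limma adjusted p = 0.00603) and 3.20-fold higher in oocytes than in SSC (limma adjusted p = 0.00221). SSC replicate 3 was the highest SSC array by both probes.

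Insl3, the peptide hormone of Leydig and theca cells on chromosome 8, was the other gene highest in SSC. Probe ILMN_1249776 had signals of 412.2, 570.8 and 454.4 in PFGC, 373.0, 411.0 and 425.3 in oocytes and 1254.0, 1103.7 and 1258.5 in SSC. It was 2.60-fold lower in PFGC than in SSC (log2 fold change -1.38, SE 0.18, limma adjusted p = 1.14e-04) and 3.93-fold lower in oocytes than in SSC (limma adjusted p = 5.59e-06). The second probe, ILMN_2654385, gave 2.53-fold lower levels in PFGC than in SSC (limma adjusted p = 4.96e-04) and 3.59-fold lower levels in oocytes than in SSC (limma adjusted p = 3.70e-05). In PFGC minus oocyte the first probe had a log2 fold change of 0.60 with overlapping arrays (limma adjusted p = 0.0616), and with the replicate number as a block the adjusted p was 0.022.

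The whole annotated span of Insl3, 1326 bases, lies within that of Jak3, a tyrosine kinase of cytokine receptors, so Jak3 was looked up after these values were seen. The kept Jak3 probe did not follow Insl3: its mean levels were 5.31 ± 0.18 in PFGC, 5.31 ± 0.12 in oocytes and 4.49 ± 0.13 log2 units in SSC (SD, n = 3 each), where no array detected it. Jak3 was at least 1.03-fold higher in PFGC than in SSC (limma adjusted p = 6.66e-04), and its second probe was detected on no array. Whether either Insl3 probe also reads Jak3 transcripts was not tested.

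**Figure D2:**
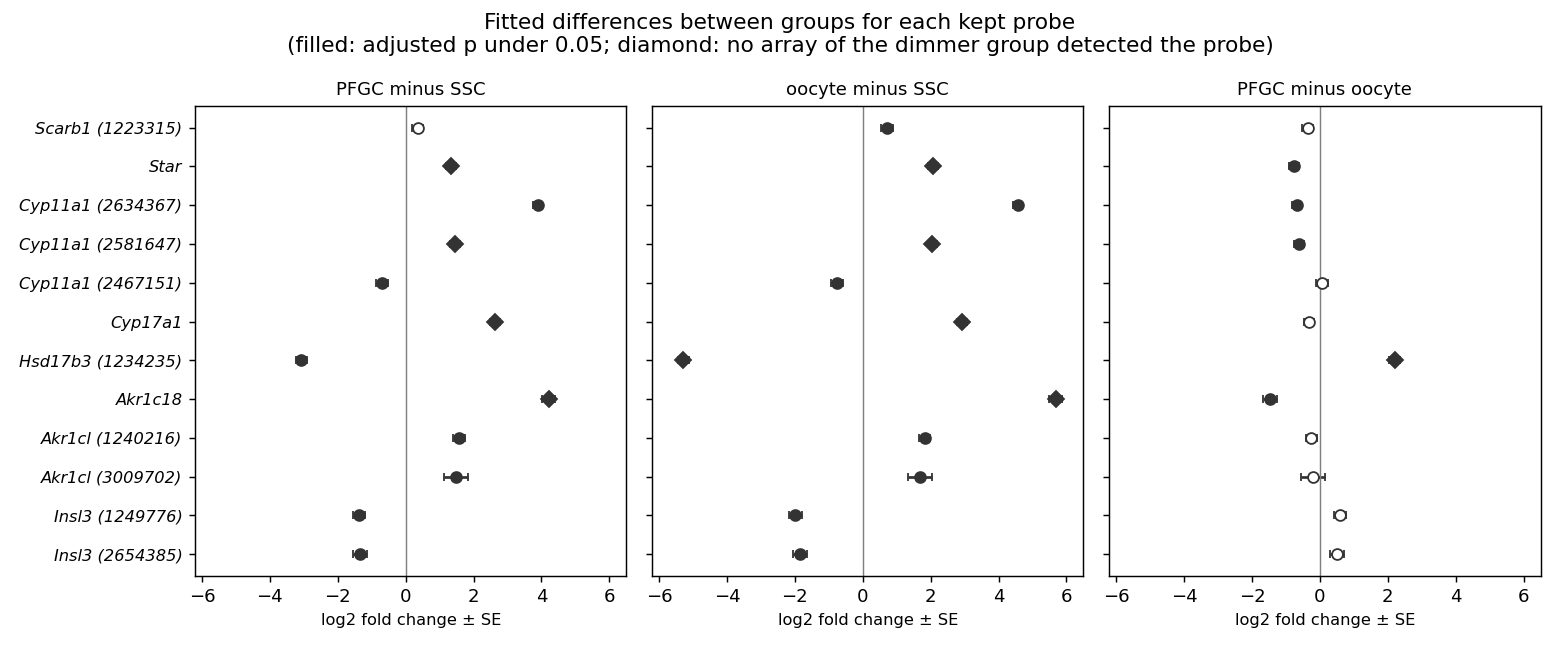
Log2 fold change with its standard error for the 12 kept probes in PFGC minus SSC, oocyte minus SSC and PFGC minus oocyte, with filled symbols for an adjusted p under 0.05 and diamonds where no array of the dimmer group detected the probe. The 2 Akr1cl probes and the 2 Insl3 probes lie close together, while the 3 Cyp11a1 probes lie at 3.89, 1.45 and -0.69 in PFGC minus SSC.

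The mean PFGC level lay between the oocyte and SSC means for 8 of 8 steroid genes by their brightest kept probe. Over all genes this order held for 64%, and for 83.5% of the genes called between oocytes and SSC. For 6 of the 8 genes oocytes were highest and SSC lowest, and for Hsd17b3 and Insl3 the order was turned. The PFGC and oocyte steps in this order were distinguished for Star, Cyp11a1, Hsd17b3 and Akr1c18 and not for Scarb1, Cyp17a1, Akr1cl or Insl3.

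Many fold sizes rested on the background correction, and those that were over 1.5 times smaller without it are given here as log2 fold changes. In PFGC minus SSC the values without the correction were 0.50 for Star, 1.15 for Cyp17a1, 2.28 for Akr1c18 and 0.20 for Scarb1, against 1.34, 2.62, 4.21 and 0.35 with it. In oocyte minus SSC they were 0.91 for Star, 1.35 for Cyp17a1, 3.57 for Akr1c18, 0.42 for Scarb1, -3.22 for Hsd17b3 and -1.21 for Insl3 probe ILMN_2654385, against 2.08, 2.92, 5.68, 0.71, -5.29 and -1.84 with it. Cyp11a1 probe ILMN_2581647 had 0.53 in PFGC minus SSC and 0.82 in oocyte minus SSC without it, against 1.45 and 2.05 with it, and probe ILMN_2467151 had -0.26 and -0.28, against -0.69 and -0.76. In PFGC minus oocyte the called values were 0.89 for Hsd17b3, -0.41 for Star and -0.29 for Cyp11a1 probe ILMN_2581647 without it, against 2.21, -0.75 and -0.61 with it. Each of these kept its direction, and each that was called with the correction was called without it.

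The same held for pathway genes named further on. In PFGC minus SSC the values without the correction were 3.60 for Nr5a2, 2.59 for Esr2, 2.33 for Cyp1b1, 1.46 for Hsd11b2, 1.26 for Crem, 0.90 for Akr1c19, 0.39 for Esr1, 0.32 for Foxl2, -0.35 for Nr5a1, -0.49 for Hsd11b1 and -0.46 for Gper1, against 5.47, 4.36, 3.95, 2.32, 1.98, 2.22, 0.89, 0.94, -0.66, -1.17 and -1.25 with it. In oocyte minus SSC they were 3.03 for Esr2, 2.81 for Cyp1b1, 1.80 for Hsd11b2, 0.96 for Akr1c19, 0.41 for Esr1, 0.41 for Foxl2, -0.45 for Nr5a1, -0.30 for Hsd11b1, -0.83 for Lrp8 and -0.42 for Gper1, against 4.86, 4.50, 2.73, 2.31, 0.92, 1.18, -0.81, -0.66, -1.29 and -1.12 with it.

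Genes with levels closest in shape to those of the steroid genes were found by the root mean square difference of array-centred log2 levels over the 9 arrays, for the 5 genes whose group means spanned at least 2 log2 units. Cyp11a1 was closest to Fhdc1 (difference 0.06 log2 units) and Tac1 (0.09), the gene of substance P. Star was closest to Cpm (0.11) and Fjx1 (0.13), and Cyp17a1 to Apobr (0.12) and Ezhip (0.12). Hsd17b3 was closest to Epcam (0.17), an epithelial and spermatogonial cell surface protein, and Lrp4 (0.18), and Akr1c18 less closely to Icam2 (0.33) and P2ry14 (0.35). Epcam levels were 6.62, 7.10 and 6.91 in PFGC, 4.47, 4.51 and 4.83 in oocytes and 9.93, 9.59 and 10.08 log2 units in SSC. It has the order of Hsd17b3 because it was picked for its closeness. Its oocyte levels lay below the lowest value of any detected probe there, 5.14 to 5.25, as did those of Hsd17b3.

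Other genes of the pathway were taken as 6 lists of 86 genes, of which 71 had a named probe and 48 a kept one. In PFGC minus SSC 20 of the 48 were higher and 11 lower, with a median log2 fold change of 0.21. In oocyte minus SSC 22 were higher and 12 lower, with a median of 0.43, and in PFGC minus oocyte 2 were higher and 2 lower, with a median of -0.16. With 1 array left out, 0 to 2 were higher and 0 to 8 lower in PFGC minus oocyte, with the most lower without SSC replicate 3, and with the replicate block 3 were higher and 9 lower. The shares of all genes called in the same comparisons are those given above.

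Among other steroid-forming enzymes and electron carriers, 8 of 20 were kept, with 4 higher and 1 lower both in PFGC and in oocytes than in SSC. Hsd17b1, which makes estradiol in granulosa cells, was 2.14-fold higher in PFGC (limma adjusted p = 5.03e-04) and 2.48-fold higher in oocytes (limma adjusted p = 1.06e-04) than in SSC. Hsd17b7 was 1.93-fold higher in PFGC (limma adjusted p = 8.61e-05) and 2.72-fold higher in oocytes (limma adjusted p = 2.61e-06) than in SSC. Hsd11b2, which inactivates glucocorticoids but was counted in this list, was 4.98-fold higher in PFGC and 6.65-fold higher in oocytes than in SSC. Hsd11b1, which reactivates glucocorticoids, was 2.24-fold lower in PFGC and 1.58-fold lower in oocytes than in SSC (limma adjusted p from 4.94e-07 to 0.0135 over both genes). The lower oocyte level of Hsd11b1 did not pass the test by its other 2 probes or without normalisation (limma adjusted p = 0.0873). In PFGC minus SSC its probe ILMN_1214998 had overlapping arrays and did not pass either (limma adjusted p = 0.0774). Fdx1, Hsd3b3, Hsd3b6, Cyp11b1, Cyp11b2 and Cyp21a1 did not reach the detection filter, and no named probe stood for Cyp19a1, the aromatase.

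Of the steroid-inactivating enzymes 4 of 10 were kept, and 2 were higher than in SSC in each comparison with none lower. Cyp1b1, an estrogen hydroxylase, had levels of 9.07, 8.64 and 9.29 in PFGC, 9.29, 9.52 and 9.83 in oocytes and 5.33, 4.88 and 4.94 log2 units in SSC. It was 15.4-fold higher in PFGC (limma adjusted p = 1.96e-07) and 22.6-fold higher in oocytes (limma adjusted p = 4.15e-08) than in SSC, where 1 array detected it. The SSC levels lay near or below the lowest value of any detected probe, 5.23 to 5.33, so these folds are not exact sizes. Akr1c19, a relative of Akr1c18, was at least 3.03-fold higher in PFGC (limma adjusted p = 3.84e-07) and at least 3.23-fold higher in oocytes (limma adjusted p = 1.60e-07) than in SSC.

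Of the genes for cholesterol supply and mitochondrial transfer 10 of 14 were kept. In PFGC 5 were higher and 3 lower than in SSC, and in oocytes 4 were higher and 3 lower. Npc1, which exports cholesterol from lysosomes, and Acbd3, a Golgi protein, were named after their values were seen: both lost the PFGC minus SSC call without SSC replicate 2 (limma adjusted p = 0.0725 and 0.0813) and without PFGC replicate 1 (0.0737 and 0.0886), which left 3 genes higher. With 75th percentile scaling 3 were higher, and without normalisation 2. Apoe, the lipoprotein ligand, was 2.34-fold higher in PFGC and 3.21-fold higher in oocytes than in SSC (limma adjusted p = 2.72e-05 and 1.70e-06). Lrp8, a receptor for Apoe, was 1.90-fold lower in PFGC and 2.45-fold lower in oocytes than in SSC (limma adjusted p = 9.99e-04 and 7.13e-05). Stard3, a Star relative of late endosomes, was 1.61-fold lower in PFGC and 1.77-fold lower in oocytes than in SSC (limma adjusted p = 0.0017 and 3.92e-04), changes that its second probe did not show. Tspo, an outer mitochondrial membrane protein, was 1.38-fold higher in PFGC than in oocytes (limma adjusted p = 0.0413), a call that ended without any 1 of the 6 arrays compared and under 3 of the other normalisations.

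Of the transcriptional regulators 10 of 16 were kept, with 4 higher and 2 lower in PFGC and 5 higher and 3 lower in oocytes than in SSC. Only 1 was lower in PFGC without SSC replicate 1 or 3 or without PFGC replicate 1 or 2. Nr5a2, a nuclear receptor of granulosa and luteal cells, had levels of 10.67, 10.50 and 9.89 in PFGC, 10.87, 10.90 and 10.36 in oocytes and 4.74, 4.99 and 4.92 log2 units in SSC, where no array detected it. By this probe it was at least 33.8-fold higher in PFGC (limma adjusted p = 2.61e-08) and at least 43.4-fold higher in oocytes (limma adjusted p = 1.00e-08) than in SSC. The other 2 Nr5a2 probes gave log2 fold changes of 0.58 and 3.04 in PFGC minus SSC, against 5.47 by the brightest. Cebpb, a transcription factor induced by luteinising hormone, had log2 fold changes of 3.02 in PFGC minus SSC and 3.46 in oocyte minus SSC (limma adjusted p = 2.26e-06 and 4.74e-07). Crem, a cAMP-responsive factor, was 3.96-fold higher in PFGC and 6.35-fold higher in oocytes than in SSC (limma adjusted p = 2.69e-06 and 1.81e-07), with 1 of its 4 probes not called. Nr5a1, the steroidogenic factor of the gonads and adrenal, was named after its values were seen. It had a log2 fold change of -0.66 in PFGC minus SSC (limma adjusted p = 0.0926) and was 1.75-fold lower in oocytes than in SSC (limma adjusted p = 0.0392). With the replicate block the first comparison was called (adjusted p = 0.0385), and the second was lost without SSC replicate 1 (0.108), 2 (0.0693) or 3 (0.0624), without oocyte replicate 2 (0.0901) or 3 (0.105), without normalisation (0.115) and without the detection filter (0.085).

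Of the gonadotropin and cAMP signalling genes 10 of 13 were kept, with 2 higher and 3 lower in PFGC and 4 higher and 3 lower in oocytes than in SSC. Fshr, the receptor for follicle-stimulating hormone, was 2.08-fold lower in PFGC and 2.19-fold lower in oocytes than in SSC (limma adjusted p = 3.48e-05 and 1.36e-05). Arrb2, an arrestin that desensitises receptors, was 1.84-fold lower in PFGC and 2.66-fold lower in oocytes than in SSC (limma adjusted p = 2.27e-04 and 4.94e-06). Akap1, a mitochondrial anchor of protein kinase A, was 1.79-fold higher in PFGC and 2.15-fold higher in oocytes than in SSC (limma adjusted p = 0.00148 and 1.76e-04). Akap1 probe ILMN_2775655 had overlapping arrays in PFGC minus SSC and was not called there (limma adjusted p = 0.179). In PFGC minus oocyte Hsd17b7 and Crem were called lower (limma adjusted p = 0.027 and 0.0212) and Arrb2 higher (limma adjusted p = 0.0262), and each of these calls ended without at least 4 single arrays.

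Of the steroid and peptide hormone receptors 6 of 13 were kept, with 3 higher and 2 lower than in SSC in each comparison. Esr2, the estrogen receptor of granulosa cells, had levels of 9.19, 9.22 and 9.26 in PFGC, 9.63, 9.67 and 9.86 in oocytes and 4.67, 4.63 and 5.28 log2 units in SSC, where no array detected it. It was at least 15.5-fold higher in PFGC (limma adjusted p = 2.50e-08) and at least 21.8-fold higher in oocytes (limma adjusted p = 7.57e-09) than in SSC, and its other 2 probes were also called higher. Esr1 was 1.86-fold higher in PFGC than in SSC (limma adjusted p = 0.00465). Gper1, a membrane estrogen receptor, was at least 1.86-fold lower in PFGC and 2.17-fold lower in oocytes than in SSC (limma adjusted p = 0.00108 and 0.00162). Amhr2, the receptor for anti-Müllerian hormone, was 1.84-fold lower in PFGC and 2.12-fold lower in oocytes than in SSC (limma adjusted p = 8.85e-04 and 1.57e-04). Pgr, Nr3c1 and Rxfp2, the receptor for Insl3, did not reach the detection filter.

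**Figure D3:**
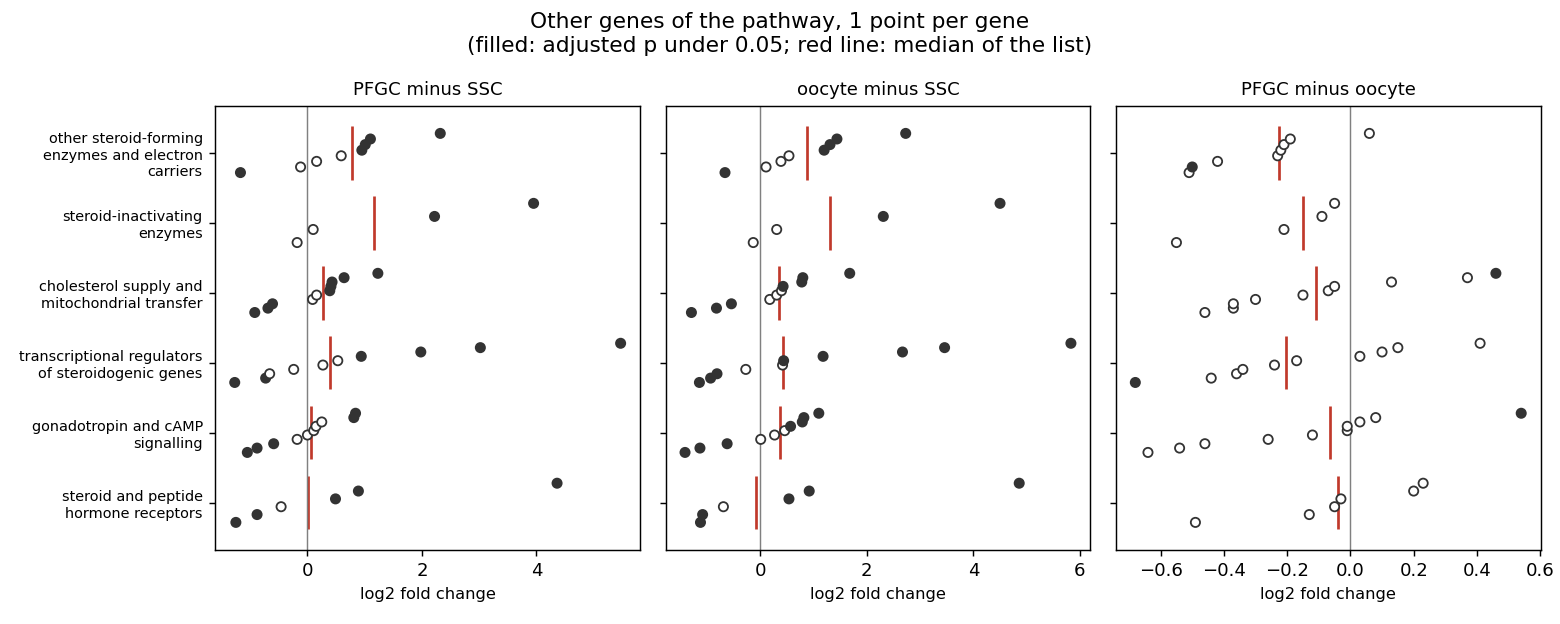
Log2 fold change of each kept gene of the 6 other pathway lists, by its brightest kept probe, in PFGC minus SSC, oocyte minus SSC and PFGC minus oocyte, with filled points for an adjusted p under 0.05 and a red line at each list's median; the third panel has a narrower axis. Nr5a2, Esr2 and Cyp1b1 are the points furthest to the right against SSC, and few points are filled in PFGC minus oocyte.

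Summed markers of oocyte, granulosa and luteal cells were lowest in SSC. Those of theca and stroma, Sertoli cells and spermatogonial stem cells were highest in SSC, and those of Leydig cells overlapped. In these bulk samples fewer cells of a type and less RNA per cell cannot be told apart. All 10 oocyte markers were detected on every PFGC and oocyte array, with summed levels of 10200 to 13000 in PFGC and 14900 to 16400 in oocytes, against 328 to 404 in SSC, where Bmp15, Zp2, Zp3, Figla, Npm2 and Nlrp5 were not detected. Of 10 measured granulosa markers 7 were higher and 3 lower in PFGC and in oocytes than in SSC, with summed levels of 25000 to 26400 in PFGC, 28100 to 29600 in oocytes and 15000 to 19000 in SSC. Nr5a2, Esr2, Hsd17b1, Fshr, Foxl2 and Amhr2 stand in this list as well as in the pathway lists.

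Of 4 luteal markers with a probe, Ptgfr was detected in no group and Sfrp4 on 1 oocyte array only. The 2 kept ones, Parm1 and Cited4, were both higher in PFGC and in oocytes than in SSC. The summed levels of the 4 with a probe were 1750 to 2230 in PFGC, 2990 to 3310 in oocytes and 425 to 498 in SSC. Star, Cyp11a1, Cyp17a1 and Akr1c18 had this order of groups, and so did the oocyte and granulosa sums. Theca and stroma markers summed to 15600 to 16900 in PFGC, 17000 to 17900 in oocytes and 23400 to 27900 in SSC, but the single markers were divided. Of 7 kept, 2 were higher and 2 lower in PFGC than in SSC, near the shares over all genes. In oocytes 2 were higher and 3 lower than in SSC. Ogn and Vcam1 were higher and Acta2 and Aldh1a1 lower in both PFGC and oocytes, and Tcf21 was lower in oocytes. Acta2, the smooth muscle actin with the highest level in this list, averaged 13.34 in PFGC, 13.49 in oocytes and 14.20 log2 units in SSC. Adrenal cortex markers were not detected apart from Cyp11b2 on 1 oocyte array, and none was kept. The part of these cells in the levels of the steroid genes was not tested.

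Beside Hsd17b3 and Insl3, 6 Leydig markers were kept, of which 1 (Vcam1) was higher and 3 (Hsd11b1, Ptgds and Pdgfra) were lower than in SSC, both in PFGC and in oocytes. Summed over the list their levels overlapped, at 4140 to 5180 in PFGC, 4720 to 5420 in oocytes and 4600 to 4970 in SSC, and the Leydig genes Hsd3b6 and Cyp2a4 were not detected on any array. Of 10 Sertoli markers 8 were lower and 1 higher in PFGC than in SSC, and 9 were lower in oocytes than in SSC. Their summed levels were 17800 to 27100 in PFGC, 3980 to 4430 in oocytes and 82100 to 87000 in SSC, and Dhh and Defb36 were not detected in oocytes. PFGC were called higher than oocytes for 7 of these 10 markers and lower for none, where 6.8% of all genes were called higher and 3.3% lower. The spermatogonial stem cell list had summed levels of 1430 to 1560 in PFGC, 1310 to 1460 in oocytes and 3210 to 3760 in SSC, with 9 of 10 markers lower in PFGC than in SSC. The part of Sertoli cells or stem cells in the Hsd17b3 and Insl3 levels was not tested.

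**Figure D4:**
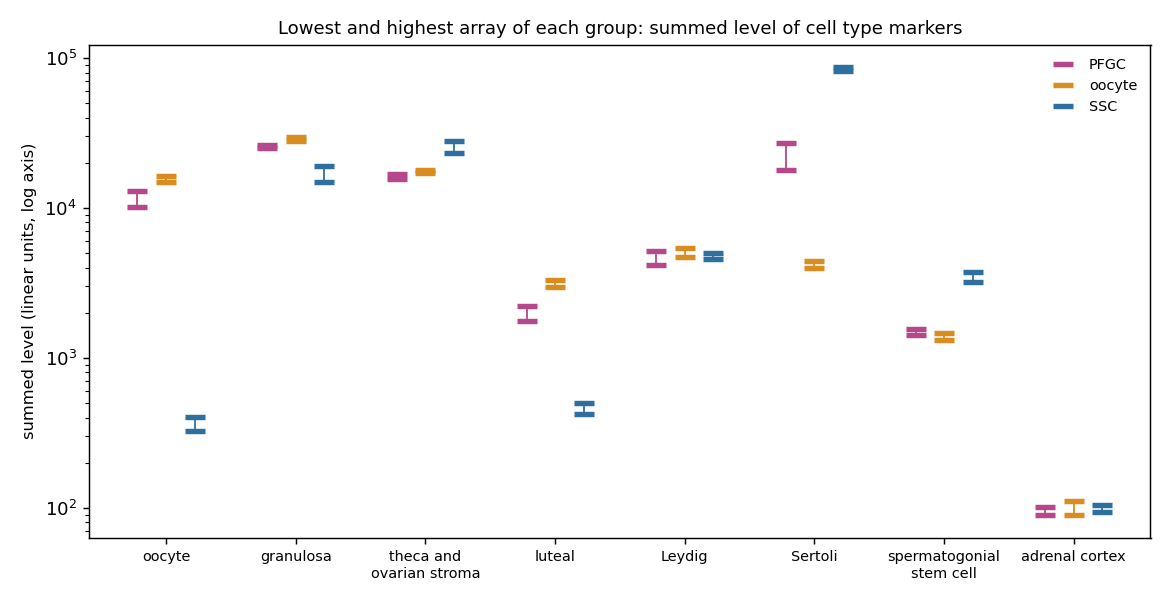
Lowest and highest array of PFGC, oocytes and SSC for the summed linear level of each list of cell type markers, on a log axis. Oocyte, granulosa and luteal sums are lowest in SSC. The Sertoli sum is highest in SSC with PFGC between SSC and oocytes, and the Leydig sums of the 3 groups overlap.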

How the data were processed

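Total RNA (Trizol, then RNeasy clean-up with DNase) was turned into biotinylated cRNA, per the labels' protocols. Per the submitters' processing notes the software was GenomeStudio, of unstated version. Per the file headers, the deposited non-normalized table gives for each array a linear signal intensity and a detection p-value of every probe. A second deposited table of processed intensity, which had a median of 112 in every column and a rank correlation of 1 with the signal, was used as an alternative; no source states how it was normalized.

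Probe symbols came from the platform annotation (34885 probes with 1 symbol, 18 with several, 10378 unnamed here), and 34807 of them matched the RefSeq gene table by Entrez identifier, from which current symbols were taken. Intensities were corrected with the normal-exponential model in limma 3.58.1 (R 4.3.3), with an offset of 16 and with control levels derived from detection p-values, quantile normalized and taken to log2. One limma fit (lmFit and eBayes, two-sided) held all 9 arrays with group as its term. The self-test used simulated data. The steroid genes, the lists and the tests were chosen with earlier results of these data known. Named genes were every steroid probe, up to 3 called genes of each other list with the largest change against SSC in each comparison and up to 2 in PFGC minus oocyte, and the 2 genes closest in shape to each steroid gene spanning 2 log2 units or more.

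Replicate numbers paired the samples only in part. Deviations of same-numbered arrays from their group means correlated at 0.14 to 0.56 in every pair. However, oocyte replicate 2 correlated best with SSC replicate 1, and PFGC replicate 2 with oocyte replicate 1. The labels state no pairing. No pair of arrays shared more than 0.0022% of its values, and correlations across probes within a group were 0.972 to 0.994. No other sample's columns were present.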

Additional observations from a re-analysis of the deposited data

How the results depend on the processing

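Of 726 values of steroid probes under alternative settings, 704 kept their side of the threshold, 12 lost and 10 gained a call, and no called value turned its direction; some uncalled values near 0 did change sign. The calls lost were in PFGC minus oocyte, for Star and 2 Cyp11a1 probes with 1 array left out; the calls gained were for Scarb1 and Insl3. With the replicate number as a block 3477 probes were called in PFGC minus oocyte, against 1827, and 2 steroid genes were higher; the block also gave the Scarb1 and Insl3 calls and changed no other call of a steroid probe. In addition, 2 steroid genes were higher in PFGC than in oocytes without background correction, with an offset of 50, with the authors' processed intensity and with trended, robust variances. With probes detected on all 9 arrays only, 2 steroid genes were higher and 1 lower in PFGC minus SSC, 3 and 1 in oocyte minus SSC, and 0 and 1 in PFGC minus oocyte, since fewer genes are tested. With probes detected on all 9 arrays 0 inactivating enzymes, against 2, were higher in each comparison with SSC, and 2 and 3 regulators, against 4 and 5. With 1 probe per gene 5770 probes were called in PFGC minus SSC and 6831 in oocyte minus SSC.

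Without background correction the medians of the other enzymes and the inactivating enzymes moved outside their ranges with 1 array left out. The signalling median in oocyte minus SSC moved to the low end of its range. For the other enzymes, with medians of 0.77 in PFGC minus SSC and 0.87 in oocyte minus SSC as reported, they were 0.53 in PFGC minus SSC and 0.78 in oocyte minus SSC without correction and with the authors' intensity, 0.60 and 0.79 with an offset of 50, 0.69 and 1.04 without normalization, and 0.98 and 1.26 with probes detected on all 9 arrays. For the inactivating enzymes the PFGC minus SSC median, 1.16 as reported, was 0.49 without correction, 0.72 with an offset of 50, 0.50 with the authors' intensity, 1.12 with 75th percentile scaling, 1.23 with cyclic loess, 1.06 without normalization and -0.04 with probes detected on all 9 arrays. Their oocyte minus SSC median, 1.31 as reported, was 0.61 without correction and with the authors' intensity, 0.86 with an offset of 50, 1.36 with cyclic loess, 1.45 without normalization and 0.09 with probes detected on all 9 arrays. The signalling median was 0.13 in PFGC minus SSC with cyclic loess, against 0.05, and 0.31 in oocyte minus SSC, against 0.37, without correction and with the authors' intensity. Without normalization the median over all kept probes was -0.14 in PFGC minus SSC, 0.10 in oocyte minus SSC and -0.26 in PFGC minus oocyte; cholesterol supply then had medians of 0.16, 0.47 and -0.35, and oocyte minus SSC medians were 0.59 for the regulators and 0.54 for signalling. In PFGC minus oocyte the medians without normalization were -0.51 for the other enzymes, -0.41 for the inactivating enzymes, -0.44 for the regulators, -0.34 for signalling and -0.27 for the receptors.

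With each array left out in turn, 7941 to 9660 probes were called in PFGC minus SSC, 10106 to 11589 in oocyte minus SSC and 608 to 2349 in PFGC minus oocyte, where 1 to 2 steroid genes were higher and 1 to 3 lower. List medians then ranged, in PFGC minus SSC, oocyte minus SSC and PFGC minus oocyte in turn, from 0.68 to 0.85, 0.82 to 0.96 and -0.29 to -0.22 for the other enzymes; from 1.13 to 1.19, 1.28 to 1.33 and -0.21 to -0.11 for the inactivating enzymes; from 0.19 to 0.39, 0.20 to 0.42 and -0.15 to -0.10 for cholesterol supply; from 0.31 to 0.53, 0.34 to 0.57 and -0.29 to -0.09 for the regulators; from 0.02 to 0.08, 0.31 to 0.43 and -0.11 to -0.05 for signalling; and from -0.11 to 0.19, -0.19 to 0.10 and -0.19 to 0.01 for the receptors. The cause of these shifts was not tested. A slide block was not run, because the file headers name no slide. Probes near the detection limit give bounds, not fold sizes.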
